A study of Mus musculus with 24 samples.

Results

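The cytokine receptor genes described here are the 10 rows of the count matrix named Il2ra, Il2rb, Il2rg, Il7r, Il12rb1, Il12rb2, Il18r1, Il18rap, Il21r and Il4ra, out of 24447 genes. They were chosen by symbol and were followed in all 1735 cells. The cells were NK1.1+CD3e+ cells that had been sorted from the mouse liver, picked by hand and sequenced one by one with unique molecular identifiers (UMIs), so that each UMI stands for 1 captured mRNA molecule. They came from C57BL/6, Jα18-deficient and CD1d-deficient mice aged 8 to 10 weeks. C57BL/6 mice were the wild type (WT) control. Type I NKT cells carry an invariant receptor with the Jα18 segment, and CD1d presents lipid antigens to NKT cells of both types, so these cells are missing or reduced in the deficient mice. No treatment is named for these mice, and their sex and number are not given in the sources used here. The labels list 24 libraries, 8 for each genotype, but the cell names carry only the genotype and a number, so each genotype was 1 pool of cells and genotypes were compared without a test.

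Most of these receptors belong to the common gamma chain family. Il2rg encodes the common gamma chain, which pairs with another chain to bind each cytokine: Il7r for IL-7, Il21r for IL-21 and Il4ra for IL-4. Il2rb and Il2rg together bind IL-2 and IL-15 with moderate affinity, and Il2ra raises the affinity for IL-2. The IL-12 receptor is made of the chains of Il12rb1, shared with the IL-23 receptor, and Il12rb2, which recruits STAT4. The IL-18 receptor is made of the binding chain of Il18r1 and the accessory chain of Il18rap and signals through MyD88, not through JAK kinases. In NK and NKT cells IL-2 and IL-15 support growth and survival, IL-7 supports survival, and IL-12 with IL-18 is a classical inducer of interferon gamma.

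Promoter sequences are shown for Il7r and Il18rap, whose levels differed between subsets of the cells below, and for Il18r1, whose mRNA was found with that of Il18rap in the same cells. They are RefSeq promoter windows on GRCm38.p6, running from 250 bases before to 50 bases after a transcript start and printed 5′ to 3′ on the strand of the gene. The Il7r window is chr15:9529827-9530126 on the minus strand, the Il18rap window is chr1:40515112-40515411 on the plus strand, and the window of the third Il18r1 start is chr1:40465756-40466055 on the plus strand. Capitals mark matches on either strand to TTCNNNGAA, a STAT site, to TGTGGT, a RUNX site, to CTTTGA, a TCF site, or to GTAAACA, a FOX site.
Il7r promoter: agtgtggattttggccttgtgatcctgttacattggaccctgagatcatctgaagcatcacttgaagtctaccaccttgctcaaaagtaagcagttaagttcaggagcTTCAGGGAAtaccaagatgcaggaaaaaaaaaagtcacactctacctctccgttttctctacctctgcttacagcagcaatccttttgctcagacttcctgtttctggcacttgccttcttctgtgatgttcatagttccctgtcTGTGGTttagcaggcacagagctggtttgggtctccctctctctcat
Il18rap promoter: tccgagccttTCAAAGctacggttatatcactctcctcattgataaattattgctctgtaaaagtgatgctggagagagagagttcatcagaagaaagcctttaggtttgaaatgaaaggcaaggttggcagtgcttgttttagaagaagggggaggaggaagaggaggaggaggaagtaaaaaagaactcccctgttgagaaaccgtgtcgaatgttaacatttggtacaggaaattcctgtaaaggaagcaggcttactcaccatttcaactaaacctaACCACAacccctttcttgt
Il18r1 promoter: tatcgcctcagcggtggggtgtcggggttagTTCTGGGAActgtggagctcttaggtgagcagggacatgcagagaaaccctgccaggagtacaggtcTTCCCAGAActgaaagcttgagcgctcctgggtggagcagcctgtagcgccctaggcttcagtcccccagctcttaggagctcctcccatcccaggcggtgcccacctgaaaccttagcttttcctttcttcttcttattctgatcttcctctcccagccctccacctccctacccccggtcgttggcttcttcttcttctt
The Il7r window held TTCAGGGAA from base 109 and TGTGGT from base 254. The Il18rap window held TCAAAG, the reverse complement of CTTTGA, from base 11 and ACCACA, the reverse complement of TGTGGT, from base 282. The third Il18r1 window held TTCTGGGAA from base 32 and TTCCCAGAA from base 99, and the second held TGTGGT from base 272. The first Il18r1 window held none of the 4 motifs, and only the third is printed. Windows were given for 8 of the 10 genes, with none for Il2rb and Il12rb1. Il12rb2 held a STAT match from base 128, Il2rg a RUNX match from base 24, and Il21r a FOX match from base 213 that shares bases with a RUNX match from base 218. Il2ra and Il4ra held none of the 4 motifs. Of 32544 promoters, 8.33% held TTCNNNGAA, 16.7% held TGTGGT, 16.02% held CTTTGA and 3.66% held GTAAACA. These matches are a description of letters and say nothing of binding.

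Receptor genes lie in pairs in the mouse genome (NCBIM37, the build of the deposited counts). Il18r1 (chromosome 1, 40522397 to 40557699) is followed on the same strand by Il18rap (chromosome 1, 40572207 to 40608550), with 14507 bases between them. Il4ra (chromosome 7, 132695785 to 132722986) is followed by Il21r (chromosome 7, 132746943 to 132777084) after 23956 bases. Il2ra (chromosome 2, 11564419 to 11614818) lies next to Il15ra, and Il12rb2 (chromosome 6, 67241312 to 67326182) next to Il23r. Il7r (15, 9435916 to 9459631) and Il2rb (15, 78310983 to 78325496) share a chromosome without being neighbours, Il12rb1 is on chromosome 8 (73332348 to 73345323) and Il2rg on X (98459717 to 98463594).

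The depth of the pools differed. WT had 623 cells with a median of 40467 UMIs, Jα18-deficient 725 cells with 46670 and CD1d-deficient 387 cells with 13508. The filter stated in the methods, from 10000 to 600000 UMIs and over 500 genes, leaves 523, 632 and 227 of these cells. Shares of cells were therefore compared after every cell had been cut at random to 10000 UMIs (thinned cells below). This dropped 100 WT, 93 Jα18-deficient and 160 CD1d-deficient cells. Cd1d1, the targeted gene, was at 25.0, 15.4 and 0 counts per 1000000 UMIs (CPM) in WT, Jα18-deficient and CD1d-deficient cells, and the matrix holds no row that checks the Jα18 deletion. Sort markers were present, with Cd3e in 89.6%, 96.7% and 74.9% of the cells and Klrb1c, which encodes NK1.1, in 92.3%, 95.6% and 92.0%. The summed level of 7 myeloid genes was 82.1, 20.6 and 602 CPM, of which Lyz2 gave 77.3, 14.7 and 588 CPM. The other 6 summed to 4.84, 5.94 and 13.97 CPM, mostly from Csf1r at 3.28, 2.23 and 9.15 CPM, with C1qb at up to 2.02 CPM, the remaining genes lower still and Cd14 at 0 in the Jα18-deficient pool. Of the other lists, the sum of 4 B cell genes was 6.07, 11.0 and 14.4 CPM, of which Cd79b gave 4.72, 10.6 and 13.2 CPM, and that of 5 hepatocyte genes 16.4, 2.63 and 0.826 CPM. The part of these other cell types in the differences between genotypes was not tested. In a pool, fewer cells with a receptor and less mRNA per cell cannot be told apart from the CPM alone, so shares of cells are given beside it.

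The shared chains were detected in most cells. Il2rb was at 754 CPM in WT, 1119 in Jα18-deficient and 736 in CD1d-deficient cells, and thinned cells with a UMI were 92.4%, 94.6% and 84.6%. Il2rg was at 745, 987 and 799.8 CPM and was detected in 85.1%, 88.3% and 78.4% of thinned cells. The Jα18-deficient pool was the highest for both chains, by a log2 ratio to WT of 0.57 (95% Poisson interval 0.55 to 0.59) for Il2rb and 0.41 (0.38 to 0.43) for Il2rg. On sums of thinned cells the Il2rg level of Jα18-deficient cells was no longer the highest. The log2 ratio of CD1d-deficient to Jα18-deficient cells turned from -0.30 to 0.019. In these sums a single CD1d-deficient cell held 322 Il2rg UMIs, against at most 132 in a Jα18-deficient and 33 in a WT cell. Without the highest cell of each pool the unthinned ratio was -0.38. WT and CD1d-deficient cells differed by -0.03 (-0.07 to -0.00) for Il2rb. The median log2 ratio over all genes compared was 0.13 for Jα18-deficient over WT, 0.01 for CD1d-deficient over WT and -0.13 for CD1d-deficient over Jα18-deficient cells, and ratios are to be read against these shifts. The intervals cover counting error alone. They leave out how mice or libraries vary.

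Il7r, the partner of Il2rg for IL-7, differed between genotypes in level and in share of cells. It was at 396 CPM in WT (95% interval 389 to 402), 245 in Jα18-deficient (241 to 248) and 204 in the CD1d-deficient pool (197 to 212). WT was the highest and the intervals of the pools did not overlap. The log2 ratio to WT was -0.69 for Jα18-deficient and -0.95 for CD1d-deficient cells, short of 2-fold. After thinning, 50.1% of WT cells had an Il7r UMI (45.7 to 54.5), against 33.2% of Jα18-deficient (29.6 to 37.1) and 29.5% in the CD1d-deficient pool (23.7 to 35.9), and the intervals of the last 2 pools overlap. Among unthinned cells with an Il7r UMI the median was 7, 3 and 2 UMIs, a count that moves with depth.

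Il2ra, the high affinity chain for IL-2, was low and uneven. It was at 39.6 CPM in WT, 30.4 in Jα18-deficient and 14.7 in CD1d-deficient cells and was found in 12.2%, 11.7% and 3.96% of thinned cells. It was the only receptor gene past 2-fold, with a log2 ratio of CD1d-deficient cells of -1.43 (-1.64 to -1.22) to WT and -1.05 (-1.26 to -0.84) to Jα18-deficient cells. A single cell held 75.2% of the 214 Il2ra UMIs of the CD1d-deficient pool, and without that cell the level there was 3.65 CPM. The 10 cells with the most Il2ra held 50.1% of the WT and 54.8% of the Jα18-deficient UMIs. So 1 of 10 receptor genes was more than 2-fold lower in CD1d-deficient than in WT cells, where 12.3% of all genes (those with 100 or more UMIs over both pools) were lower and 12.2% higher by that much. Against Jα18-deficient cells it was again 1 of 10, with 17.8% of all genes lower and 9.58% higher. None of the 10 passed 2-fold between Jα18-deficient and WT cells, where 14.0% of all genes were higher and 7.14% lower. Leaving out the cell with the most UMIs of each gene changed these counts to 3 against WT for CD1d-deficient cells, with Il2ra, Il7r and Il12rb2 lower, and to 1 for Jα18-deficient cells, with Il12rb2 lower.

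The partners of Il2rg for IL-4 and IL-21, encoded next to each other, had the same order of genotypes in CPM, with WT the lowest. Il4ra was at 44.6 CPM in WT (42.4 to 46.9), 77.6 in Jα18-deficient (75.4 to 79.9) and 70.7 in CD1d-deficient cells (66.5 to 75.2). The interval of WT lay below those of the other pools. Its log2 ratio to WT was 0.80 in Jα18-deficient and 0.67 in CD1d-deficient cells, and 20.7%, 28.8% and 25.1% of thinned cells had a UMI. Il21r was at 86.5, 107.7 and 91.6 CPM and in 35.8%, 38.1% and 39.6% of thinned cells, and the intervals of its shares overlapped in all 3 pools. The CPM intervals of WT (83.4 to 89.7) and CD1d-deficient cells (86.8 to 96.7) overlapped as well.

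The IL-12 receptor chains were unlike each other. Il12rb1 was at 43.6 CPM in WT (41.4 to 45.8), 40.8 in Jα18-deficient (39.2 to 42.5) and 45.8 in CD1d-deficient cells (42.4 to 49.4), and the CPM intervals overlapped between all pools. It was found in 18.9% of thinned cells of WT (15.7 to 22.6), 12.3% of Jα18-deficient (9.88 to 15.2) and 15.4% of CD1d-deficient mice (10.98 to 20.8). The thinned intervals of WT and Jα18-deficient cells did not overlap. Those of the unthinned shares did, at 29.2% (25.7 to 33.0) in WT and 25.5% (22.4 to 28.9) in Jα18-deficient cells. These intervals count the cells of 1 pool and leave out how mice vary, so no genotype difference is read from them. On sums of thinned cells the log2 ratio to WT was -0.39 in Jα18-deficient and -0.32 in CD1d-deficient cells, against -0.09 and 0.07 over all cells. Il12rb2, the chain that recruits STAT4, was at 6.80, 5.03 and 3.99 CPM. It was found in 2.10%, 1.58% and 1.32% of thinned cells, and a single cell held 25.9%, 54.9% and 55.2% of its UMIs in the 3 pools. In unthinned cells it had a UMI in 4.49%, 3.72% and 3.10%, near the 4.01%, 2.62% and 2.58% of cells with a UMI of the B cell gene Cd79a. Without that cell its level was 5.04, 2.27 and 1.79 CPM. The intervals of its shares overlapped, so a difference in the share of cells was not detectable at this depth.

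The IL-18 receptor chains were detected in a minority of cells in every genotype. Il18r1 was at 39.1 CPM in WT, 46.1 in Jα18-deficient and 47.6 in CD1d-deficient cells, and in 12.6%, 13.3% and 15.4% of thinned cells. Il18rap was at 58.5, 80.4 and 48.9 CPM and in 19.7%, 19.8% and 17.2% of thinned cells. The share of cells with either chain had overlapping intervals in the 3 pools. For Il18rap the CPM of the Jα18-deficient pool was above WT by a log2 ratio of 0.46 (0.38 to 0.53), but 1 cell held 13.2% of its UMIs and the ratio of the mean CPM over cells was -0.09.

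**Figure D1:**
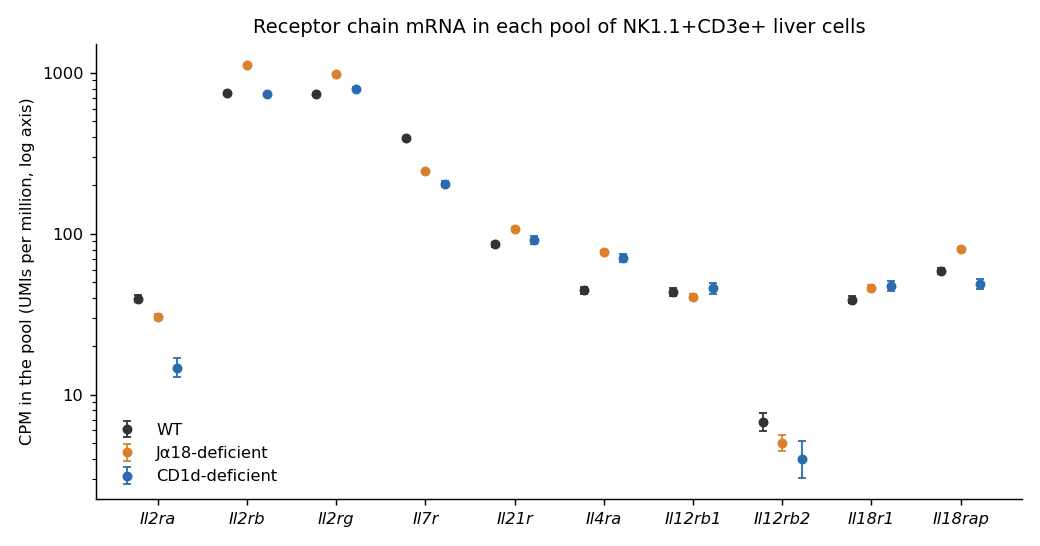
CPM of the 10 receptor genes (log axis) in the WT, Jα18-deficient and CD1d-deficient pools, with exact Poisson 95% intervals for counting error. Il7r is highest in WT, Il4ra is lowest in WT, and Il2ra is lowest in CD1d-deficient cells, where 75.2% of its UMIs are in 1 cell.

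**Figure D2:**
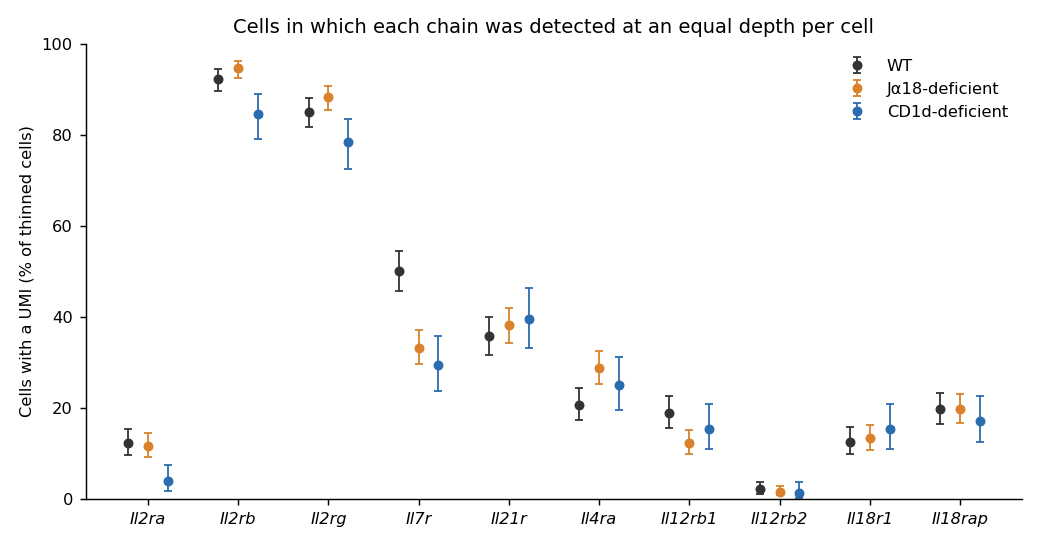
Percent of cells with at least 1 UMI of each receptor gene after thinning to 10000 UMIs, with exact Clopper-Pearson 95% intervals, in 523 WT, 632 Jα18-deficient and 227 CD1d-deficient cells. Il7r was detected in 50.1% of WT cells and in 33.2% and 29.5% of the others, and Il12rb2 in at most 2.10%.

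A receptor needs all of its chains in the same cell, so co-detection was counted in thinned cells and set against the product of the chains' own shares in that pool. Cells of 1 pool come from several libraries that cannot be separated here, and no test was made of this comparison. For Il2rg with Il2rb, Il7r, Il21r or Il4ra, co-detection was from 0.962 to 1.06 times the product. Il2rb with Il2rg was found in 79.0% of the cells in WT, 83.9% in Jα18-deficient and 64.8% in CD1d-deficient mice, which was 1.005, 1.004 and 0.976 times the product. Il7r with Il2rg was found in 42.8%, 29.1% and 22.5% of the cells, at 1.005, 0.992 and 0.971 times the product. Il21r with Il2rg was in 29.4%, 34.2% and 33.0%, and Il4ra with Il2rg in 17.02%, 25.5% and 18.9%. Among WT cells with Il7r, 85.5% also had Il2rg, against 84.7% of those without Il7r. The full IL-2 receptor with Il2ra was found in 10.1% of WT cells (53 of 523) and 9.81% of Jα18-deficient cells (62 of 632). In CD1d-deficient cells it was found in 1.32% (3 of 227). The ratios to the product were 1.05, 1.003 and 0.503. The last of these had an interval of 0.10 to 1.45, and it was 1.04 without thinning (20 of 387 cells).

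The chains of the IL-18 receptor were detected together more often than the product of their shares in every pool. Both Il18r1 and Il18rap were found in 21 of 523 WT cells (4.02%, 95% Clopper-Pearson interval 2.50 to 6.07), 32 of 632 cells of Jα18-deficient mice (5.06%, 3.49 to 7.07) and 13 of 227 of CD1d-deficient mice (5.73%, 3.08 to 9.59). The product of the shares was 2.49%, 2.63% and 2.65%, so the ratios were 1.62 (1.01 to 2.44), 1.93 (1.33 to 2.69) and 2.16 (1.16 to 3.62), with the error of the product left out. Of cells with Il18r1, 31.8%, 38.1% and 37.1% had Il18rap, against 17.9%, 16.97% and 13.5% of cells without it. Without thinning the share with both chains was 7.38%, 15.6% and 7.24%. The ratio itself was above 1 at every depth tried and with at least 2 UMIs of each chain, from 1.31 to 3.44. Its interval included 1 in WT at 5000 UMIs, at 20000 UMIs and with at least 2 UMIs of each chain. In CD1d-deficient cells the interval included 1 at 5000 and at 20000 UMIs. The share of cells with both chains moved with the depth. Pearson's r of the log counts of Il18r1 and Il18rap across thinned cells was 0.12, 0.17 and 0.28 in WT, Jα18-deficient and CD1d-deficient cells, and such weak values in sparse counts are a description only.

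The IL-12 receptor was seldom complete. Il12rb1 and Il12rb2 were found together in 1 of 523 cells in WT, 3 of 632 in Jα18-deficient and 1 of 227 in CD1d-deficient mice, and the ratio to the product, 0.48, 2.43 and 2.16, had intervals from 0.01 to 11.9. All 4 chains of the IL-12 and IL-18 receptors were found in 0 of 523, 0 of 632 and 0 of 227 thinned cells, which at this depth allows shares of up to 0.574%, 0.475% and 1.32% (3 cells) of thinned cells with a UMI of each chain. The limits do not cover cells that express them, since without thinning all 4 were found in 4 of 725 Jα18-deficient cells (0.552%), 1 of 387 CD1d-deficient cells (0.258%) and 0 of 623 WT cells, and at 20000 UMIs in 1 of 542 Jα18-deficient cells. Il12rb1 was found with both IL-18 receptor chains in 6, 3 and 4 cells. Il7r with both IL-18 receptor chains was found in 13 WT cells (2.49%), 16 Jα18-deficient cells (2.53%) and 10 CD1d-deficient cells (4.41%), at 1.996, 2.90 and 5.63 times the product of the 3 shares. Il7r with Il18r1 alone was 1.27, 1.61 and 1.74 times its product and Il7r with Il18rap 1.105, 1.32 and 1.82 times. The WT intervals of these pairs, 0.93 to 1.69 and 0.85 to 1.41, include 1. Il4ra with its neighbour Il21r was found in 8.99%, 12.7% and 11.0% of cells, at 1.22, 1.153 and 1.11 times the product, with intervals that include 1. Of the 45 pairs of receptor genes, 12 were above their product in all 3 pools, some by little, such as Il18rap with Il4ra at 1.13, 1.03 and 1.02 times. The same count was not made for pairs of other genes, so nothing particular to receptor genes is read from it. The median thinned cell had a UMI of 3 of the 10 genes in each pool, and 5 or more were found in 19.1% of WT cells, in 19.1% in the Jα18-deficient pool and in 11.9% in the CD1d-deficient pool.

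**Figure D3:**
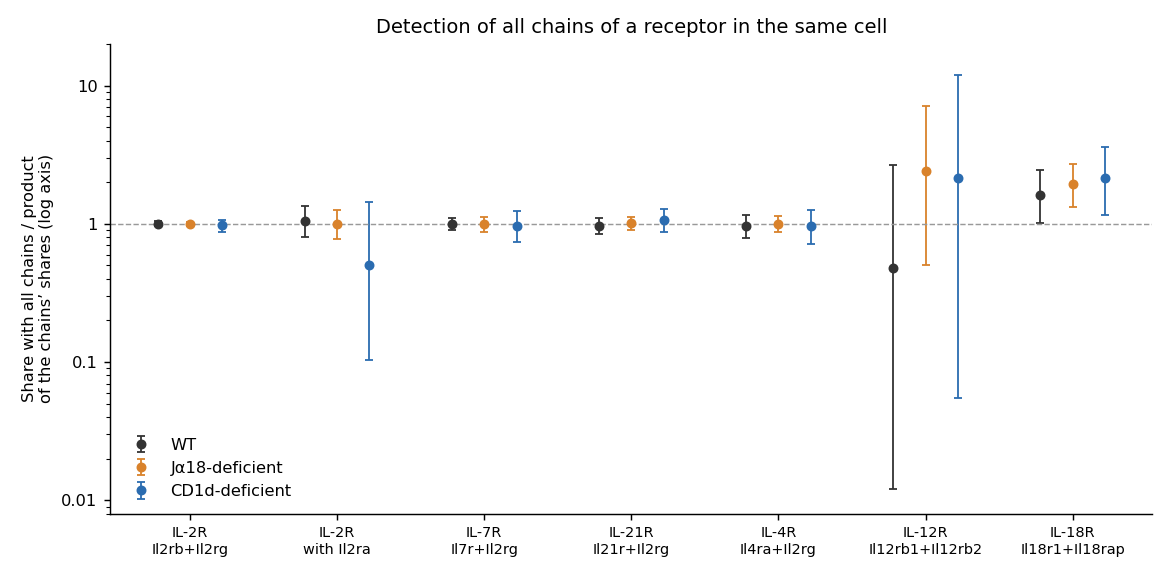
Share of thinned cells with all chains of a receptor divided by the product of the chains' shares (log axis), by pool. Bars are exact Clopper-Pearson 95% intervals of the share. Il2rg with Il2rb, Il7r, Il21r or Il4ra lies near 1, and the IL-18 receptor lies at 1.62, 1.93 and 2.16. The IL-2 receptor with Il2ra lies at 0.503 in CD1d-deficient cells, from 3 cells and with an interval that includes 1.

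To ask whether the receptors differ between kinds of NK1.1+CD3e+ cells, cells were divided by genes that are not receptor genes. S1pr1 encodes the receptor that lets lymphocytes leave tissue, the Ly49 genes encode NK cell receptors for MHC class I, and Cd8a and Cd4 encode T cell coreceptors. Cells with at least 2 UMIs were compared with cells with 0, and UMIs were summed for each pool and side and tested with edgeR's quasi-likelihood test with a pool term. The divisions share cells, since 76.9% of S1pr1+, 90.8% of Cd8a+ and 42.8% of Cd4+ cells were also Ly49+. The replicates were the 3 pools, each of another genotype, so the p-values measure spread across genotypes and not across mice. Calls required an ln fold change beyond 0.25 in either direction together with an adjusted p below 0.05. The positive cells had more UMIs than the negative ones in every pool that entered a test, for S1pr1 with medians of 59817 against 40082 in WT, 70561 against 40853 in Jα18-deficient and 34611 against 12923 in CD1d-deficient cells. The part of depth in the results was not tested. The thinned sums given below cannot show it, since they also left out shallow cells and took positive cells from 1 UMI after thinning.

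Il7r and Il18rap were higher in S1pr1+ cells. The paper had reported S1pr1, Il7r, Il18r1 and Il18rap as higher in the same cluster of these cells, and the gates were chosen with earlier results known. The p-values below are therefore not independent of that report. There were 24 S1pr1+ cells in WT, 56 in Jα18-deficient and 24 in CD1d-deficient mice, against 586, 612 and 349 S1pr1− cells. Il7r was at 768 CPM in S1pr1+ and 381 in S1pr1− cells of WT, 482 and 185 of Jα18-deficient and 776 and 169 of CD1d-deficient mice. S1pr1+ cells were higher in 3 of 3 pools and the sides did not overlap, with 675 ± 167 against 245 ± 118 CPM (mean ± SD, n = 3 pools). The log2 fold change was 1.68 ± 0.28 (SE), with an edgeR adjusted p of 0.0021. Il18rap was at 143 against 55.4 CPM in WT, 193 against 61.5 in Jα18-deficient and 233 against 37.2 in CD1d-deficient cells. It was again higher in 3 of 3 pools without overlap, with a log2 fold change of 2.04 ± 0.43 (SE) and an edgeR adjusted p of 0.042. These 2 of 10 receptor genes were called higher and 0 lower, where 0.0718% of 9755 genes tested were called higher and 0.0820% lower. DESeq2 also called these 2 and no other receptor gene, where it called 0.707% of all genes. An unadjusted p under 0.05 was found for 2 of 10 by edgeR (6.92% of all genes) and 3 of 10 by DESeq2 (10.5%).

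The thinned shares of cells did not move as evenly as the summed levels. Cells were here S1pr1+ from 1 UMI after thinning. Il7r was detected in 12 of 23 S1pr1+ cells of WT (52.2%, 30.6 to 73.2) against 250 of 500 S1pr1− cells, in 34 of 52 (65.4%, 50.9 to 78.0) against 30.3% in Jα18-deficient and in 10 of 17 (58.8%, 32.9 to 81.6) against 27.1% in CD1d-deficient cells. In WT the share of S1pr1− cells lay inside the interval of the S1pr1+ share, while the summed levels were 768 and 381 CPM. Il18rap was detected in 17.4%, 30.8% and 29.4% of S1pr1+ and 19.8%, 18.8% and 16.2% of S1pr1− cells, and the interval of each S1pr1+ share held the S1pr1− share. A single cell held 50.7%, 24.4% and 25.8% of the Il18rap UMIs of the S1pr1+ sums, and without the highest cell of each sum the level was 70.3 against 52.1, 145.6 against 47.3 and 173 against 32.6 CPM. For Il7r the same removal left 622 against 369, 417 against 171 and 629 against 149 CPM.

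Both calls depended on the settings. The Il7r call was lost without the pool term (edgeR adjusted p = 0.40) and with S1pr1+ cells taken from 1 UMI (edgeR adjusted p = 0.11), and it was kept on thinned sums and without each pool in turn. The Il18rap call was lost under the first of these (0.40), under the second (0.79), on thinned sums (0.56), without Jα18-deficient cells (0.17) and without CD1d-deficient cells (0.16), all edgeR adjusted p. The log2 fold change stayed above 0 in all of them, from 1.23 to 2.01 for Il7r and from 1.13 to 2.37 for Il18rap.

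Il18r1 was not called. It was at 87.2 against 37.5 CPM in WT, 52.7 against 38.5 in Jα18-deficient and 106 against 39.6 in CD1d-deficient cells. A single cell held 53.5% of the Il18r1 UMIs of the WT S1pr1+ sum. Without the highest cell of each sum Il18r1 was at 40.5 against 34.0, 43.0 against 35.3 and 74.4 against 32.2 CPM. Its log2 fold change was 1.19 ± 0.59 (SE, edgeR adjusted p = 0.74, unadjusted p = 0.055). It was detected in 26.1%, 28.8% and 35.3% of S1pr1+ and 12%, 11.9% and 13.8% of S1pr1− thinned cells. Both IL-18 receptor chains were found in 2 of 23, 7 of 52 and 2 of 17 S1pr1+ cells, or 8.70% (1.07 to 28.0), 13.5% (5.59 to 25.8) and 11.8% (1.46 to 36.4), against 3.80%, 4.31% and 5.24% of S1pr1− cells. Il7r with both chains was found in 6 of 52 S1pr1+ cells of Jα18-deficient mice (11.5%, 4.35 to 23.4) against 1.72%.

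None of the other 7 receptor genes was called between S1pr1+ and S1pr1− cells. Il4ra had 69.6 against 43.8, 87.5 against 82.0 and 124 against 65.3 CPM, a log2 fold change of 0.72 ± 0.51. Il21r had lower sums in S1pr1+ cells in 3 of 3 pools, at 56.8 against 85.7, 71.4 against 111 and 60.1 against 88.3 CPM. Its log2 fold change was only -0.44 ± 0.51 (edgeR adjusted p = 0.93). Its thinned shares were 43.5% against 35.4%, 26.9% against 39.1% and 41.2% against 39.5%, so no order is read from it. Il2rb and Il2rg had log2 fold changes of 0.18 ± 0.22 and -0.39 ± 0.25. Il2ra, Il12rb1 and Il12rb2 had -1.77 ± 1.12, -1.13 ± 0.88 and -2.53 ± 2.27, with at most 54 UMIs of each in an S1pr1+ sum. The median over the 10 genes was -0.10 and that over all genes -0.31. The myeloid sum was 101 against 80.1, 21.2 against 21.0 and 418 against 616 CPM in S1pr1+ and S1pr1− cells, with no common direction. The sum of the B cell genes was lower on the S1pr1+ side in 3 of 3 pools, at 2.03 against 6.36, 0.95 against 13.7 and 3.06 against 14.1 CPM. So was the sum of the sort marker genes, at 4338 against 4939, 4379 against 5347 and 3916 against 5741 CPM. The hepatocyte sum was 0.676 against 17.5, 6.24 against 2.46 and 0 against 0.860 CPM. The part of these in the Il7r and Il18rap results was not tested.

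**Figure D4:**
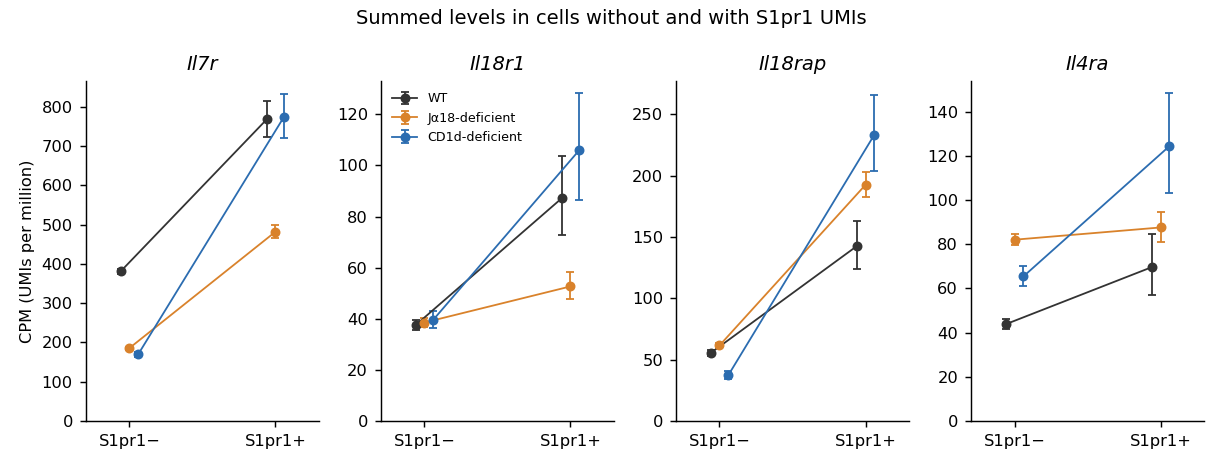
CPM of Il7r, Il18r1, Il18rap and Il4ra in summed S1pr1− (0 UMIs) and S1pr1+ (at least 2 UMIs) cells, 1 line for each pool, with exact Poisson 95% intervals. Il7r and Il18rap were called by edgeR with adjusted p of 0.0021 and 0.042, while Il18r1 and Il4ra were not.

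The other divisions of the cells gave no call for a receptor gene. Between Ly49+ and Ly49− cells, edgeR called 0 of 10 receptor genes, 1 had an unadjusted p under 0.05, and DESeq2 called 0 with 1 at that level. Of all 10041 genes, 0.279% were called higher and 0.0398% lower, 5.95% had an unadjusted p under 0.05, and DESeq2 called 0.856% with 8.67% at that level. The B cell sum was higher on the Ly49+ side in 3 of 3 pools, at 14.4 against 2.16, 11.2 against 0 and 16.3 against 4.02 CPM. The hepatocyte sum was lower there, at 4.34 against 27.7, 2.51 against 5.06 and 0.636 against 3.01 CPM, and the part of both in these values was not tested. The Ly49 sum rests on 7 of 9 Klra genes with a UMI, and reads of these near-identical genes may be split between them. Il18r1 was the gene with the low unadjusted p (0.020), with a log2 fold change of -1.12 ± 0.45 (SE, edgeR adjusted p = 0.68). It was at 31.9 CPM in Ly49+ against 54.9 in Ly49− cells of WT. The sums were 45.1 against 50.6 CPM in Jα18-deficient and 36.1 against 162 in CD1d-deficient cells. A single cell held 70% and 55.3% of the Ly49− UMIs of these last pools. Without the highest cell of each sum Il18r1 was at 27.7 against 47.9, 40.5 against 15.2 and 28.7 against 72.3 CPM. Its thinned shares, divided at 1 UMI after thinning, were 15.6% against 11.5%, 13.8% against 12.02% and 11.9% against 27.5%. They cover other cells than the sums, with 183 Ly49− cells in the Jα18-deficient pool against 60 in its sum. No common order is read from Il18r1. Il21r had 106.6 against 74.6, 107.2 against 129 and 94.3 against 104.4 CPM, while its share of thinned cells was higher on the Ly49+ side in each pool, at 43.3% against 33.0%, 41.2% against 30.6% and 44.3% against 23.5%, so that no order is read from it. Ly49− cells were shallow in CD1d-deficient mice, with a median of 7205 UMIs against 18096.

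Il7r did not pass the adjusted threshold between Cd8a+ and Cd8a− cells, with lower sums on the Cd8a+ side in 3 of 3 pools. It was at 179 against 430.3 CPM in WT, 232 against 252 in Jα18-deficient and 178 against 342 in CD1d-deficient cells, a log2 fold change of -0.73 ± 0.24 (SE, unadjusted p = 0.0071, edgeR adjusted p = 0.65). Without the highest cell of each sum it was at 89.7 against 417, 204 against 222 and 149 against 301 CPM. Il21r went the other way in 3 of 3 pools, at 127 against 86.0, 122 against 92.0 and 89.2 against 62.6 CPM (log2 fold change 0.53 ± 0.32, edgeR adjusted p = 0.9998), and was detected in 47.6%, 50.8% and 45.3% of Cd8a+ against 34.7%, 34.9% and 34.7% of Cd8a− thinned cells. The sums of Il18r1 were 4.75 against 37.6, 37.9 against 49.97 and 39.5 against 61.0 CPM (-1.18 ± 0.60). The 4.75 CPM of WT rests on 9 UMIs in 36 cells, with 55.6% of the UMIs in 1 cell. The thinned shares of Il18r1 were 14.3% against 12.5%, 12.5% against 13.5% and 12.3% against 18.2%. In all, edgeR called 0 of 10 receptor genes, with 1 at an unadjusted p under 0.05, and DESeq2 called 0 with 2 at that level. Of 10269 genes tested, 0.0487% were called higher and 0.0195% lower, 5.05% had an unadjusted p under 0.05, and DESeq2 called 0.740% with 8.61% at that level. The sum of the B cell genes moved with this division, at 54.4 against 3.66, 11.7 against 4.03 and 20.2 against 2.91 CPM. The sort marker sum did too, at 5656 against 4823, 5452 against 5023 and 5748 against 4966 CPM, and their part in these values was not tested.

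With Cd4+ cells taken from 2 UMIs, Cd4+ and Cd4− cells could be compared in the WT and Jα18-deficient pools only. The CD1d-deficient pool had 6 such Cd4+ cells. No receptor gene was called by edgeR or by DESeq2, and 3 had an unadjusted p under 0.05 by each. Il18rap was at 34.3 CPM in Cd4+ against 81.1 in Cd4− cells of WT and 45.1 against 92.1 of Jα18-deficient mice, a log2 fold change of -1.03 ± 0.41 (SE, edgeR adjusted p = 0.53). Its share of thinned cells, divided at 1 UMI after thinning and so over other cells, did not follow, at 19.6% against 19.7% and 29.3% against 18.5%. Il7r was at 312 against 491 and 185 against 274 CPM (-0.51 ± 0.21, edgeR adjusted p = 0.57), again with shares of 51.7% against 49.5% and 33.3% against 33.2%. Il12rb2 had 10.9 against 4.51 and 15.6 against 1.96 CPM, and without the highest cell 6.10 against 3.47 and 1.37 against 0.853. Il2ra was at 45.2 against 37.2 and 55.9 against 23.2 CPM, and all 3 IL-2 receptor chains were found in 14.0% against 8.68% of WT and 13.3% against 9.34% of Jα18-deficient cells, with overlapping intervals. Of 10387 genes tested, 0.116% were called higher and 0.270% lower in Cd4+ cells, 6.50% had an unadjusted p under 0.05, and DESeq2 called 0.607% with 8.10% at that level. The B cell sum was lower in Cd4+ cells of both pools, at 1.68 against 10.5 and 1.19 against 16.1 CPM, as were the myeloid sum, at 69.8 against 98.0 and 12.5 against 20.95, and the sort marker sum, at 4781 against 5004 and 4654 against 5363. Their part in these values was not tested.

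**Figure D5:**
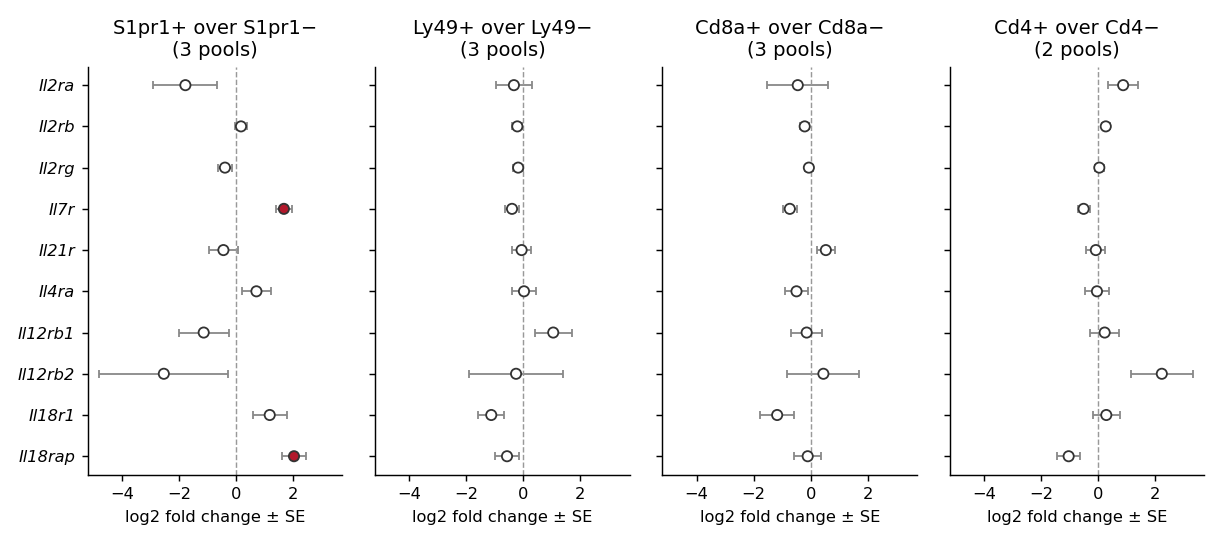
Log2 fold changes of the 10 receptor genes (positive over negative cells) with the SE from edgeR's quasi-likelihood test, for S1pr1, Ly49 and Cd8a over 3 pools and for Cd4 over 2. Filled points, Il7r and Il18rap in the S1pr1 panel, were called, and open points were not.

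Other genes of these pathways were counted by list in the same tests. Of 10 cytokine genes (Il2, Il4, Il7, Il9, Il12a, Il12b, Il13, Il15, Il18, Il21), 2 or 3 had enough UMIs to be tested and 0 were called in the 4 divisions. Of 13 other receptor chains, such as Il15ra, Il6st and Il10ra, 7 to 9 were tested and 0 called. None of the 10 JAK kinase and STAT genes, all tested, was called, nor any of 6 genes of IL-18 signalling, such as Myd88 and Irak4, or of 5 inhibitors, such as Cish and Socs1. Over S1pr1+ against S1pr1− cells the median log2 fold change was 0.14 for the other chains, -0.04 for kinases and STATs, -0.69 for IL-18 signalling, -0.98 for inhibitors and -0.17 for 6 targets, beside -0.31 for all genes. An unadjusted p under 0.05 was found in that division for 2 of 2 tested cytokine genes, 1 of 6 IL-18 signalling genes, 2 of 5 inhibitors and 1 of 6 targets, beside 6.92% of all genes, and for none of the other chains, kinases and STATs. In the other divisions it was found for 1 of 5 inhibitors and 2 of 6 targets (Ly49), 1 of 5 inhibitors and 1 of 6 targets (Cd8a), and 2 of 3 cytokine genes and 1 of 6 targets (Cd4).

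Among the targets, which were Ifng, Bcl2, Tbx21, Eomes, Gzmb and Prf1, only Gzmb was called, and it was called in all 4 divisions, which share cells and are not separate results. Gzmb encodes granzyme B, a protease of cytotoxic granules that IL-2 and IL-15 are known to raise. It was at 204 CPM in S1pr1+ against 750.5 in S1pr1− cells of WT, 371 against 1057 of Jα18-deficient and 290.4 against 2909 of CD1d-deficient mice, a log2 fold change of -2.07 ± 0.28 (SE, edgeR adjusted p = 0.00015). It was higher in Ly49+ (1.57 ± 0.18, edgeR adjusted p = 4.2e-06) and Cd8a+ cells (1.99 ± 0.30, edgeR adjusted p = 0.024) and lower in Cd4+ cells (-1.25 ± 0.17, edgeR adjusted p = 3.2e-07).

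The genes most like each receptor gene across cells were sought among 4313 genes with a UMI in at least 10% of thinned cells, by the mean over pools of Pearson's r of log counts. Il7r was nearest to Tcf7 (mean r 0.24, with 0.23, 0.14 and 0.36 in WT, Jα18-deficient and CD1d-deficient cells), Ly6c2 (0.22) and Emb (0.20). Il18r1 was also nearest to Emb (0.23), followed by Il18rap (0.19). Il2rb reached 0.21 with H2-K1 and 0.20 with Rac2. No gene reached 0.2 for the other 7 receptor genes, and for Il18rap the nearest was Il18r1. The cells share libraries that cannot be separated here, so these values carry no p.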

How the data were processed

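NK1.1+CD3e+ cells were sorted from the liver and picked by hand, and 1735 of them are in 1 matrix of UMI counts for 24447 genes. According to the methods and processing notes, the authors used Cutadapt 1.15 for trimming, TopHat2 2.0.12 for alignment to the transcriptome of build mm9, UMIs to remove duplicates and HTSeq 0.10.0 to count transcripts per gene. The deposited values are raw counts and were checked to be whole numbers. Each UMI counts 1 molecule, so no division by gene length was made, and no doublet caller was run on cells picked by hand. No 2 cells had identical counts and no cell name was repeated. The 3 genotypes were compared as pools without a test, since cells could not be assigned to the 24 libraries.

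CPM is UMIs per 1000000 UMIs of the cells summed. Sums have exact Poisson and shares exact Clopper-Pearson 95% intervals, where nothing was counted 3 counts set the upper limit, and both cover counting error only. Past 2-fold was read for genes with 100 or more UMIs over both pools. Gate sums had at least 10 cells and were tested with edgeR 4.0.16 in R 4.3.3 (TMM, filterByExpr, quasi-likelihood test, pool term, Benjamini-Hochberg over all genes tested). On counts simulated for the S1pr1, Ly49, Cd8a and Cd4 contrasts, 21.2%, 38.0%, 46.8% and 43.9% of genes changed 4-fold were recovered, and 1.01%, 4.08%, 7.45% and 6.45% of genes changed 2-fold. Alternatives were DESeq2 1.42.0, RLE size factors, no filter, no pool term, positive from 1 UMI, thinned cells, each pool left out, TMM factors, the mean of cell CPM, other thinning depths and at least 2 UMIs for detection. Leaving out the highest cell of each gene was added after the data were seen. The authors' clusters and fold changes were not used, and cells were not clustered. No receptor gene was counted for the groups, but the paper had reported S1pr1 as higher in the same cluster as Il7r, Il18r1 and Il18rap.

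The receptor genes were given by symbol and all are named. Pathway genes were counted by list and named where called, and the nearest genes were named from a mean r of 0.2. The members, lists and gates were chosen with earlier results of these data known. Positions are from the annotation of NCBIM37, which may differ from that of the authors, and promoters from RefSeq on GRCm38.p6. Python 3.11.15, scipy 1.17.1, numpy 2.4.6 and matplotlib 3.10.9 were used for shares, tables and figures.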

Additional observations from a re-analysis of the deposited data

Results flagged for a closer look

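Il2ra had opposite directions in different pools in 2 of the 4 divisions. Between Ly49+ and Ly49− cells the log2 ratio was 1.01 in CD1d-deficient cells (16.1 against 8.03 CPM) and -1.45 in Jα18-deficient cells (28.3 against 77.2 CPM). Between Cd8a+ and Cd8a− cells it was 3.22 in CD1d-deficient cells (21.0 against 2.26 CPM) and -2.95 in WT cells (5.28 against 40.8 CPM). The difference between pools was not tested, because each pool gives 1 sum on each side. Without the cell with the most Il2ra in each sum, the CD1d-deficient values were 3.34 against 1.004 CPM for Ly49 and 3.40 against 1.61 CPM for Cd8a. The same removal left 24.8 against 58.2 CPM in Jα18-deficient cells for Ly49 and 1.06 against 36.0 CPM in WT cells for Cd8a. Of these, 1.004 and 1.06 CPM are below what 3 UMIs give in those sums (3.01 and 1.58 CPM), so no fold is read from them.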

How the results depend on the processing

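No paired analysis was possible because the cell names carry no replicate number, which holds for libraries with the same number across genotypes. The positive and negative sums of a pool were compared within it, with the pool as a term.

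Of 328 alternative values of the log2 fold changes of receptor genes between gates, 292 kept direction and side of the threshold, 7 lost the call and 29 changed sign, none of these in a called gene. The 7 were those of Il7r and Il18rap named with the S1pr1 result. The number of receptor genes called between S1pr1+ and S1pr1− cells was 2, and it was 0 without the pool term, 0 with the gate from 1 UMI, 1 on thinned cells, and 1 to 2 with a pool left out (1 without the Jα18-deficient or the CD1d-deficient pool). For Ly49, Cd8a and Cd4 it was 0 in every alternative run. No pool could be left out for Cd4, which had 2. The cause of these changes was not tested. Thinned sums left out the cells below the thinning depth and took positive cells from 1 UMI after thinning. Depth, gate and set of cells changed together there, so their parts cannot be told apart.

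The 15 genes called in all for S1pr1 became 69 with DESeq2, 30 with no filter, 1 without the pool term, 2 from 1 UMI and 46 on thinned cells, and 16 to 22 with a pool left out. The 32 for Ly49 became 86, 59 and 5 with the first 3 of these, and 32 to 55 with a pool left out (55 without the Jα18-deficient pool). The 7 for Cd8a became 76, 57 and 1, with 3 by RLE size factors, 20 on thinned cells, and 7 to 49 with a pool left out (29 without WT and 49 without the CD1d-deficient pool). The 40 for Cd4 became 63 with DESeq2, 16 by RLE, 1 without the pool term, 13 from 1 UMI and 20 on thinned cells. The Cd4 run from 1 UMI had 3 pools, since the CD1d-deficient pool then entered it.

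The log2 fold changes that changed sign, with the alternative value, were on thinned cells: Il2rb -0.023 for S1pr1, Il12rb1 -0.48, Il12rb2 1.32 and Il21r 0.58 for Ly49, Il12rb1 0.15 and Il18rap 0.0299 for Cd8a, and Il12rb1 -0.22, Il18r1 -0.26, Il21r 0.083 and Il4ra 0.095 for Cd4. With the gate from 1 UMI they were Il12rb2 0.11 and Il21r 0.25 for S1pr1, Il4ra -0.022 for Ly49, Il2ra 0.37 for Cd8a, and Il7r 0.13 and Il4ra 0.044 for Cd4. The Cd4 run from 1 UMI also took in the CD1d-deficient pool and so had 3 pools, so gate and pools changed together. Il4ra for Ly49 was -0.00671 by DESeq2 and -0.00589 by RLE. With a pool left out the ranges were, for Ly49, Il2ra -0.85 to 0.39, Il12rb2 -2.17 to 1.76, Il18rap -0.99 to 0.0069, Il21r -0.34 to 0.16 and Il4ra -0.17 to 0.14, and for Cd8a, Il2ra -1.83 to 0.92, Il12rb1 -0.63 to 0.25, Il12rb2 -0.29 to 1.27 and Il18rap -0.55 to 0.60.

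Of the 10 receptor genes, those past 2-fold between Jα18-deficient and WT cells went from 0 to 1 without the highest cell, those between CD1d-deficient and WT from 1 to 2 with TMM factors and to 3 without the highest cell, and those between CD1d-deficient and Jα18-deficient from 1 to 0 with TMM factors, where Il2ra was at -0.995. Of the 30 log2 ratios between genotypes, 8 had another sign in at least 1 alternative (5 of them with an interval that excludes 0), 5 of 30 on thinned cells, 3 by the mean of cell CPM and 1 without the highest cell. The share of cells with both IL-18 receptor chains was 7.38% in WT and 15.6% in Jα18-deficient cells without thinning, 2.59% and 7.56% in Jα18-deficient cells at 5000 and 20000 UMIs, and 1.91%, 1.90% and 3.08% in WT, Jα18-deficient and CD1d-deficient cells from 2 UMIs of each chain. Few S1pr1+ cells limit the shares on that side, and shares of rare chains move with the depth chosen.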
